A study of Danio rerio with 9 samples.

Results

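Lipid synthesis and lipid transfer genes of the larval zebrafish tail are represented here by 4 transcripts, those of *ptgdsb.2* (NM_001045413), *tm7sf2* (NM_001008597), *pltp* (NM_001003519) and *stard10* (NM_205646), out of 37176 transcripts on the array. They were chosen by gene name from the comparison of cut and uncut tails itself, in which *pltp* and *stard10* were called higher and *ptgdsb.2* and *tm7sf2* lower, so their changes are described without a test. The study compared posterior tissue of wild type AB larvae on NimbleGen arrays with 1 color. Cut tails (5 arrays) came from larvae amputated just behind the notochord at 2 days post-fertilization (dpf) and collected at 3 dpf, which is 1 day post-amputation (dpa), and uncut tails (4 arrays) came from larvae of the same age without the first amputation. The RNA, from about 150 tails for each condition, was amplified before labeling. Nothing states that the arrays of a group came from different pools of larvae, so the spread between them may be technical. Each array gives 1 log2 expression value per transcript. A difference of 1 on this scale is a fold change of 2, and levels of different transcripts cannot be set against each other because each rests on its own probes. No detection call was used here, so a low value may be close to the background of the array.

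The 4 genes act at different points of lipid metabolism. In mammals, lipocalin-type prostaglandin D synthase, after which *ptgdsb.2* is named, turns the product of the cyclooxygenases into prostaglandin D. As a secreted lipocalin it also carries small lipophilic molecules. Whether the zebrafish protein acts as an enzyme, as a carrier or as both was not measured here. *tm7sf2* encodes a sterol reductase of the endoplasmic reticulum that acts late in cholesterol synthesis. *pltp* encodes the secreted phospholipid transfer protein, which in mammals moves phospholipids between lipoproteins, and *stard10* encodes a cytosolic protein with a START domain, which in the mouse binds and moves phosphatidylcholine and phosphatidylethanolamine. The genes named for enzymes of synthesis, *ptgdsb.2* and *tm7sf2*, were thus lower in cut tails, and those of the transfer proteins were higher. This split follows from how the genes were chosen, and for *ptgdsb.2* it rests on the name.

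Cut replicates 3 and 5 stood apart in transcripts of lens genes, a tissue that the tail does not hold. Over 15 measured lens genes, cut replicate 3 had a median of 12.04 and cut replicate 5 of 8.98, with 7.37 to 8.12 for cut replicates 1, 2 and 4 and 6.94 to 7.78 for the uncut arrays. The 4 genes are therefore also given without these arrays.

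*ptgdsb.2* had log2 values of 9.28, 9.20, 8.86, 8.95 and 8.91 in cut replicates 1 to 5, against 10.67, 10.48, 9.77 and 10.98 in uncut replicates 1 to 4. The cut arrays lay within 0.43 of each other, whereas the uncut arrays spanned 1.21, with uncut replicate 3 the lowest and uncut replicate 4 the highest. Still, the groups did not overlap, and the highest cut array was 0.48 below the lowest uncut array. The cut arrays averaged 9.04 ± 0.19 (SD, n = 5) and the uncut arrays 10.47 ± 0.51 (SD, n = 4), a log2 change of -1.43, or a level 2.70-fold lower. By the size of its fall the transcript ranked 43 among all 37176, and *tm7sf2* ranked 357. By the size of the rise, *pltp* ranked 454 and *stard10* 902.

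*tm7sf2* had log2 values of 10.82, 11.49, 11.04, 10.82 and 10.94 in cut replicates 1 to 5, against 11.75, 12.26, 11.67 and 11.89 in uncut replicates 1 to 4. Replicate 2 was the highest array of its group in cut and in uncut tails alike, and cut replicate 2 came within 0.18 of uncut replicate 3, the smallest distance between the groups for any of the 4 genes. The cut arrays averaged 11.02 ± 0.28 (SD, n = 5) and the uncut arrays 11.89 ± 0.26 (SD, n = 4), a log2 change of -0.87, or a level 1.83-fold lower.

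*pltp* had log2 values of 13.02, 13.04, 12.62, 13.06 and 12.81 in cut replicates 1 to 5, against 11.94, 12.00, 12.03 and 12.30 in uncut replicates 1 to 4. Cut replicate 3 was the lowest of the cut arrays and uncut replicate 4 the highest of the uncut arrays, and 0.32 remained between them. The cut arrays averaged 12.91 ± 0.19 (SD, n = 5) and the uncut arrays 12.07 ± 0.16 (SD, n = 4), a log2 change of 0.85, or a fold change of 1.80.

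*stard10* had log2 values of 8.85, 9.04, 8.96, 8.75 and 8.74 in cut replicates 1 to 5, against 8.30, 8.30, 8.17 and 8.09 in uncut replicates 1 to 4. It had the smallest change of the 4 genes and also the smallest spread. Its groups were 0.44 apart at their nearest arrays, more than for *pltp* or *tm7sf2*. The cut arrays averaged 8.87 ± 0.13 (SD, n = 5) and the uncut arrays 8.21 ± 0.10 (SD, n = 4), a log2 change of 0.65, or a fold change of 1.57.

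**Figure D1:**
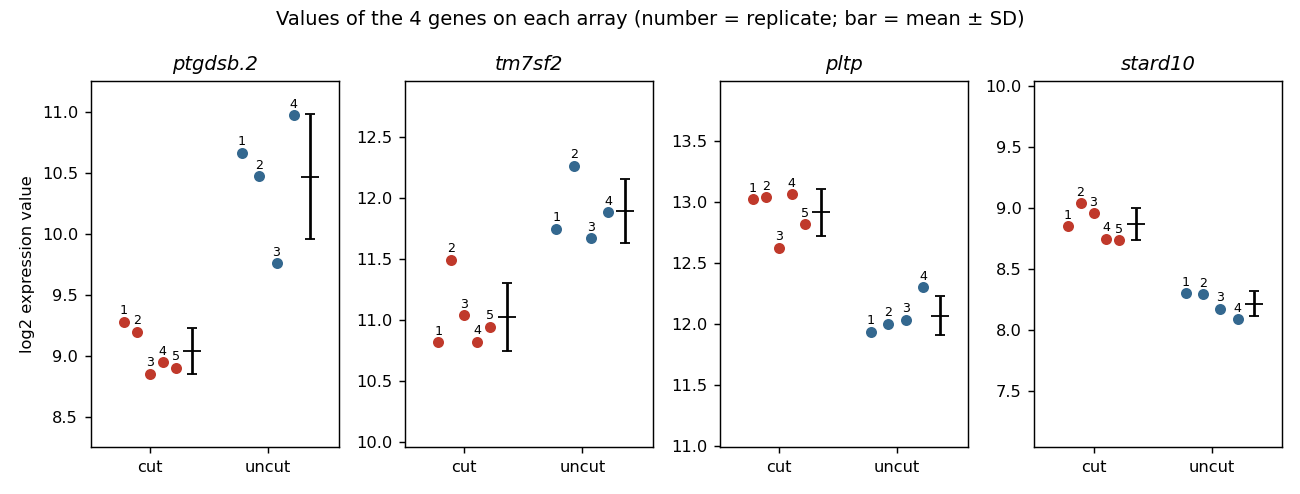
Log2 expression value (vertical axes, each spanning 3 log2 units) of *ptgdsb.2*, *tm7sf2*, *pltp* and *stard10* in cut and uncut tails. Each point is 1 array with its replicate number, and the bar beside a group gives its mean ± SD; *ptgdsb.2* and *tm7sf2* sit lower in all 5 cut arrays than in any of the 4 uncut arrays, and *pltp* and *stard10* sit higher.

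The spread within groups, which also enters the calls, differed between the 4 transcripts. The SD pooled over both groups was 0.37 for *ptgdsb.2*, 0.27 for *tm7sf2*, 0.18 for *pltp* and 0.12 for *stard10*. Among the pooled SDs of all transcripts these stood at percentiles 75.0, 53.7, 23.2 and 7.59. Within the 4, the fallen transcripts thus had the larger SDs and the risen transcripts the smaller ones. The calls weigh the change against the spread, so a transcript with a small change could be chosen only with a small SD. The order of the SDs is therefore no result about risen and fallen genes. The SD of *ptgdsb.2* was 0.19 in cut tails and 0.51 in uncut tails.

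The changes were opposite within every cut array. This follows from the directions by which the genes were chosen and from groups that do not overlap, so it is no separate result. Set against the mean of the uncut arrays for the same transcript, *ptgdsb.2* lay between -1.61 and -1.19 in the cut arrays and *tm7sf2* between -1.07 and -0.40, while *pltp* lay between 0.56 and 0.99 and *stard10* between 0.52 and 0.82. The mean of the risen genes minus the mean of the fallen genes was 1.93, 1.73, 1.88, 2.06 and 1.89 in cut replicates 1 to 5, against -0.05, -0.18, 0.43 and -0.20 in uncut replicates 1 to 4. This difference varied less among the cut arrays, with an SD of 0.12 (n = 5), than among the uncut arrays, with an SD of 0.29 (n = 4). Uncut replicate 3 was the uncut array nearest to the cut ones, and *ptgdsb.2*, at -0.71 there, accounted for most of its distance from the other uncut arrays.

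**Figure D2:**
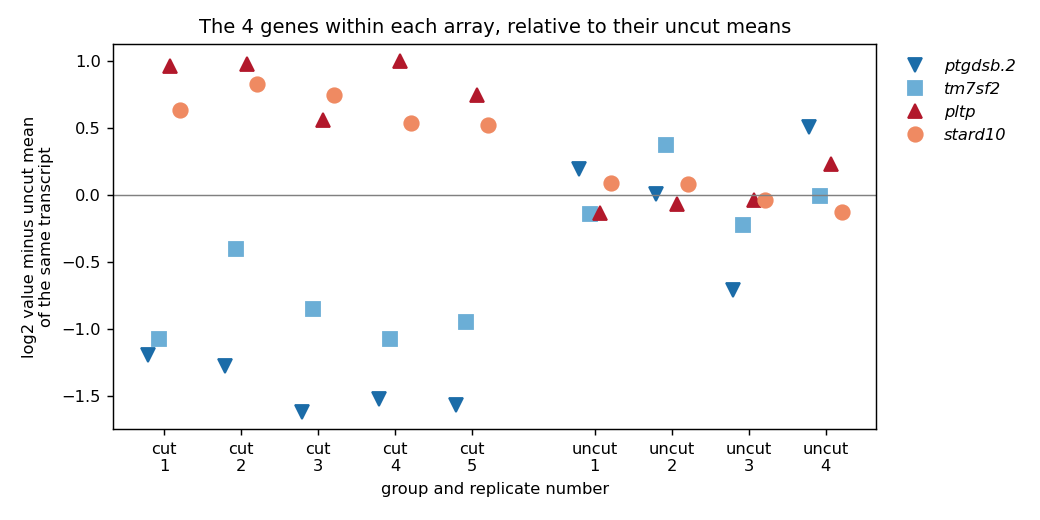
Log2 value of each gene on each array minus the mean of the 4 uncut arrays for the same transcript (vertical axis), for cut replicates 1 to 5 and uncut replicates 1 to 4 (horizontal axis). In every cut array *pltp* and *stard10* lie at 0.52 or above and *ptgdsb.2* and *tm7sf2* at -0.40 or below. In the uncut arrays the values run from -0.71 (*ptgdsb.2*, replicate 3) to 0.50 (*ptgdsb.2*, replicate 4). In uncut replicate 3 both fallen genes lie below both risen genes, as in the cut arrays.

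Calls were made with a linear model in limma with Benjamini-Hochberg adjustment over all 37176 transcripts, at a fold change of at least 1.5, or 0.585 on the log2 scale, and an adjusted p of at most 0.1. By these limits 0.468% of all transcripts were called higher and 0.229% lower. The selection rests on the same calls, so nothing is read from the 4 genes against these shares. Likewise, the groups did not overlap for any of the 4 genes, which held for 2.83% of all transcripts with higher and 1.89% with lower values in cut tails. Of the 4 genes, *stard10*, at 1.57, was the nearest to the limit on fold change. The nearest lipid gene that fell short of this limit was *slco2b1*, at 1.49. The calls depended on single arrays more than the changes did: 0 of the 4 genes passed both limits without uncut replicate 2, 1 (*pltp*) without uncut replicate 4, and 2 (*ptgdsb.2* and *tm7sf2*) without cut replicate 2. Without cut replicate 1, 3, 4 or 5 or uncut replicate 1, 3 of 4 passed, each time all but *tm7sf2*. The log2 changes themselves ran from -1.67 to -1.26 for *ptgdsb.2*, from -0.99 to -0.74 for *tm7sf2*, from 0.80 to 0.92 for *pltp* and from 0.61 to 0.68 for *stard10* when each array was left out in turn.

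With cut replicates 3 and 5, the arrays high in lens genes, both left out, the log2 change was -1.33 for *ptgdsb.2*, -0.85 for *tm7sf2*, 0.97 for *pltp* and 0.66 for *stard10*, each within 0.13 of its value over all arrays. With 3 cut arrays left, 1 of the 4 genes (*pltp*) passed both limits.

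The other genes of lipid metabolism were taken from 9 lists with 825 genes, of which 112, with 113 transcripts, could be assigned on the array. A gene name was available for 2663 of the 37176 transcripts, so other listed genes may be present without a name. Of the 113 transcripts, 0 were called higher and 0 lower, where 0.697% of all transcripts were called in either direction, a share at which fewer than 1 call among 113 would stand. The 4 genes, all of them called, were left out of the lists, whereas the shares over all transcripts include them. The 0 therefore follows in part from how the 4 genes were chosen. At an unadjusted p under 0.05 from limma, 5 of the 113 were higher and 4 lower, or 7.96%, against 12.2% of all transcripts, 6.46% higher and 5.71% lower. With the 4 genes, each also under 0.05, put back, the share would be larger, so no shortage of changes is read from it. The median log2 change of the 113 was 0.01, against 0.04 over all transcripts, and 53.1% had a positive change, against 57.4%. The lists could draw only on the 2663 transcripts with a gene name. These had a median of 0.08, and 64.9% had a positive change. At an unadjusted p under 0.05 from limma, 210 of them were higher and 88 lower, or 11.2%, so named transcripts leaned more to rises than all transcripts did.

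Among 15 measured genes of sterol synthesis and its control, where *tm7sf2* belongs, 0 were called and the median log2 change was -0.08. *pmvk*, which encodes the phosphomevalonate kinase of the mevalonate pathway, had a mean of 7.10 ± 0.22 in cut tails and 7.47 ± 0.15 in uncut tails (SD, n = 5 and 4), a change of -0.37 (SE 0.14, adjusted p = 0.326 from limma). *hsd17b7*, which encodes a ketosteroid reductase of the same pathway as *tm7sf2*, was at 10.39 to 10.49 in the cut arrays and at 10.49 to 10.79 in the uncut arrays. The groups just failed to touch, at a change of -0.20 (SE 0.10, adjusted p = 0.463). *lss*, which encodes lanosterol synthase, and *srebf2*, which encodes the transcription factor that controls the pathway, each had a change of -0.24, both with an adjusted p above 0.5 from limma. *ldlra*, which encodes a receptor for low-density lipoprotein, had a change of 0.34 (SE 0.19, adjusted p = 0.520). The changes of the 15 genes ran from -0.37 to 0.34, with 7 positive and 8 negative. Among the positive ones were *ebp* at 0.13, *idi1* at 0.06 and *mvda* at 0.06.

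Among 13 measured genes of prostaglandins and other eicosanoids, the field of *ptgdsb.2*, 0 were called and the median change was 0.10. The nearest to a call was *slco2b1*, which encodes an organic anion transporter and was listed as a relative of the prostaglandin transporter gene *slco2a1*. Its values were 10.39, 10.23, 10.08, 10.30 and 10.25 in cut replicates 1 to 5, against 9.56, 9.49, 9.97 and 9.69 in uncut replicates 1 to 4. All cut arrays lay above all uncut arrays, with uncut replicate 3 the nearest. The change was 0.57 (SE 0.13, adjusted p = 0.113 from limma), just outside both limits. Without uncut replicate 3, its highest uncut array, it was 0.67 (adjusted p = 0.0373), past both. Without any other single array the adjusted p from limma was higher than over all arrays, at 0.142 to 0.395. *slco2a1* itself had a change of -0.12, the receptor gene *ptger4a* of 0.10 and the prostaglandin E synthase gene *ptges3b* of 0.17. The phospholipase gene *pla2g10* and the lipoxygenase gene *alox5b.3* each had a change of 0.26. No transcript could be assigned to *ptgdsb.1*, the gene next to *ptgdsb.2* in the RefSeq annotation, or to a cyclooxygenase gene. The fall of *ptgdsb.2* therefore cannot be set against its closest relative or against the cyclooxygenase genes.

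Among 10 measured genes of intracellular lipid binding and transfer, where *stard10* belongs, 0 were called and the median change was 0.13. *stard4*, which encodes a sterol carrier with a START domain and is the only other *stard* gene that could be assigned, had a change of -0.22 (SE 0.12, adjusted p = 0.505 from limma), opposite in sign to *stard10*. *pitpnb*, which encodes a phosphatidylinositol transfer protein, was at 11.65 to 12.01 in the cut arrays and at 11.29 to 11.63 in the uncut arrays, without overlap, at a change of 0.31 (SE 0.12, adjusted p = 0.347). *rbp5*, which encodes a cellular retinol-binding protein, had a change of 0.33 (SE 0.14, adjusted p = 0.399). The fatty acid-binding protein genes *fabp4a*, *fabp7a* and *fabp1b.1* had changes of 0.28, 0.19 and 0.16, none of them called. On the other side, *pitpnc1b*, *scp2b* and *ttpal* had changes of -0.24, -0.20 and -0.13. Of the 10 changes, 6 were positive and 4 negative.

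Among 7 measured genes of the list of secreted lipid carriers and lipoproteins, where *pltp* belongs, 0 were called and the median change was 0.06. Not all 7 encode secreted carriers. The transporter genes *abcg2a* and *abcg2c* do not, nor does *ldlrap1b*, named for an adaptor of the receptor for low-density lipoprotein. The median is the value of *ldlrap1b*. *abcg2a*, which encodes an ABC transporter related to sterol transporters but known in mammals for the export of urate and drugs, had the largest rise of the 113 transcripts. Its values were 8.93, 9.29, 8.90, 8.74 and 8.49 in cut replicates 1 to 5, against 8.06, 8.02, 8.43 and 7.97 in uncut replicates 1 to 4. The groups did not overlap, and the lowest cut array, replicate 5, was close to the highest uncut array, replicate 3. The change of 0.75 (SE 0.17) was past the limit on fold change, but its adjusted p of 0.128 from limma was not. This adjusted p was 0.0963 without cut replicate 5 and 0.0603 without uncut replicate 3. Without any other single array it was higher than over all arrays, at 0.193 to 0.423. With the replicate number as a block, which leaves out cut replicate 5, the change was 0.85 (adjusted p = 0.0799 from limma), and *abcg2a* passed both limits. *apoda.1*, which encodes apolipoprotein D, a lipocalin like the product of *ptgdsb.2*, had a change of -0.41 (SE 0.16, adjusted p = 0.340) with overlapping groups. *lcn15*, another lipocalin gene, had a change of 0.33 (SE 0.19, adjusted p = 0.517).

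The remaining lists held 0 called transcripts as well. Of 23 measured genes of phospholipid synthesis and remodelling, *tmem30b*, which encodes a subunit of phospholipid flippases, had the largest change, at -0.60 (SE 0.20, adjusted p = 0.271 from limma). *peds1*, which encodes the desaturase that makes plasmalogens, had a change of -0.27 (SE 0.12, adjusted p = 0.377) and *plpp7a* of 0.29 (SE 0.12, adjusted p = 0.383). The 16 sphingolipid genes had a median change of -0.09, with 10 negative, among them *sgms1b*, which encodes a sphingomyelin synthase, at -0.23 (SE 0.12, adjusted p = 0.463), without overlap between the groups. The 8 genes of fatty acid synthesis and activation ran from -0.39 (*acsl1a*, which encodes an acyl-CoA synthetase) to 0.17 (*acsl1b*), and the 12 genes of fatty acid oxidation from -0.25 (*oxct1b*) to 0.27 (*echdc3*). The 9 transcripts of triacylglycerol, lipid droplet and lipase genes ran from -0.44 (*pnpla3*) to 0.09 (*nceh1b.1*). Over all 113 transcripts the groups did not overlap for 4 that were higher and 2 that were lower, or 5.31%. The share was 4.72% for all transcripts and 5.29% for those with a gene name. Both of these shares include the 4 genes, whose groups did not overlap, and the 5.31% does not.

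**Figure D3:**
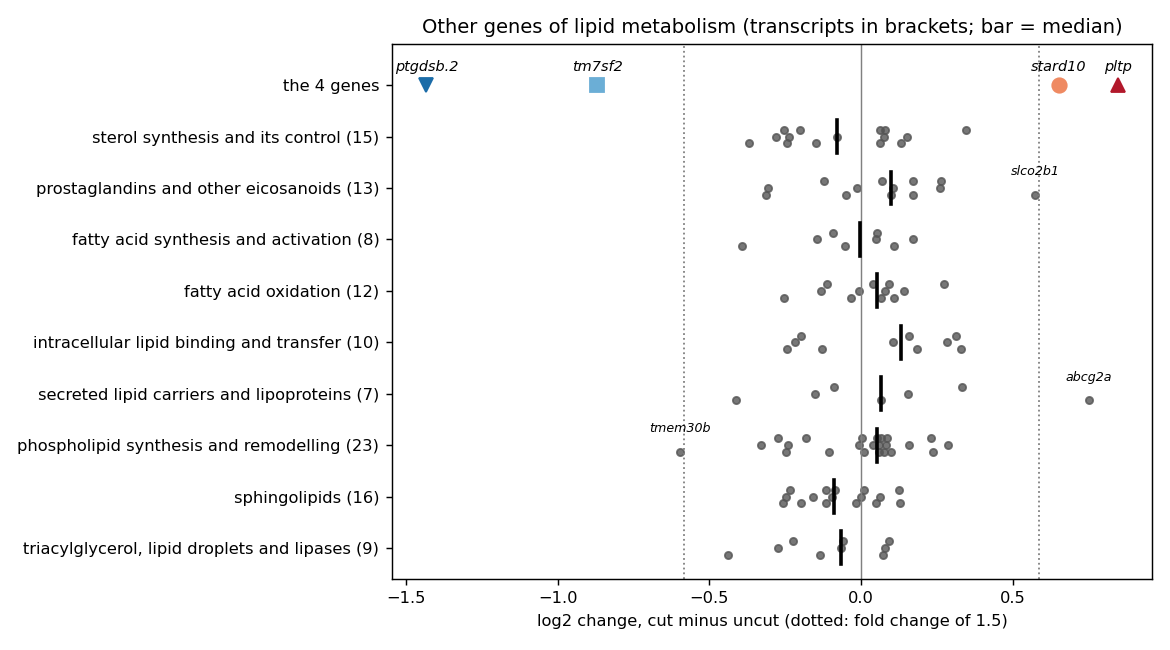
Log2 change, cut minus uncut (horizontal axis), of *ptgdsb.2*, *tm7sf2*, *stard10* and *pltp* (top row) and of the 113 other transcripts of lipid metabolism by list, where each point is 1 transcript, the bar is the median of the list and the dotted lines mark a fold change of 1.5. Of the 113, *abcg2a* at 0.75 and *tmem30b* at -0.60 lie beyond the dotted lines and *slco2b1* at 0.57 lies just within them.

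To see which named transcripts followed the 4 genes most closely over the 9 arrays, log2 values were centered on each transcript's mean, and the mean absolute difference was taken to each of the other 2662 transcripts with a gene name. The measure includes the difference between cut and uncut tails, so that near transcripts share its direction by construction. For *ptgdsb.2* the nearest were *zgc:113307*, *zgc:123217* and *crp4*, at mean differences of 0.31, 0.34 and 0.34 log2 units, where the median over all named transcripts was 0.76. None was as near as the transcripts nearest to the other 3 genes, but the medians for those genes were also smaller. They were 0.50 for *tm7sf2*, 0.41 for *pltp* and 0.34 for *stard10*. Of the transcripts without a gene name, 68 were nearer to *ptgdsb.2* than *zgc:113307* was. The same count was 11 for *tm7sf2*, 6 for *pltp* and 4 for *stard10*. *zgc:123217* was lower in uncut replicate 3 than in the other uncut arrays, as *ptgdsb.2* was.

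For *tm7sf2* the nearest were *hhex*, which encodes a homeobox transcription factor, at 0.16, the flippase subunit gene *tmem30b* at 0.19 and *dpt*, which encodes the matrix protein dermatopontin, at 0.22. *hhex* and *tmem30b* were, like *tm7sf2*, highest in uncut replicate 2. For *pltp* they were the slow troponin gene *tnni1b* at 0.13, the serine protease gene *htra3a* at 0.15 and *slco2b1* at 0.15. For *stard10* they were the small GTPase gene *rhoub* at 0.10, the tetraspanin gene *tspan5b* at 0.11 and the DNA repair gene *rad52* at 0.12. Of the 12 nearest transcripts, *tmem30b* and *slco2b1* belong to the lipid lists, which hold 113 of the 2663 transcripts with a gene name. Both were also among the most changed lipid transcripts, and the measure includes that change. Between the 4 genes themselves, the mean difference was 0.22 for *pltp* and *stard10* and 0.37 for *ptgdsb.2* and *tm7sf2*, and from 0.75 to 1.12 between a risen and a fallen gene.

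**Figure D4:**
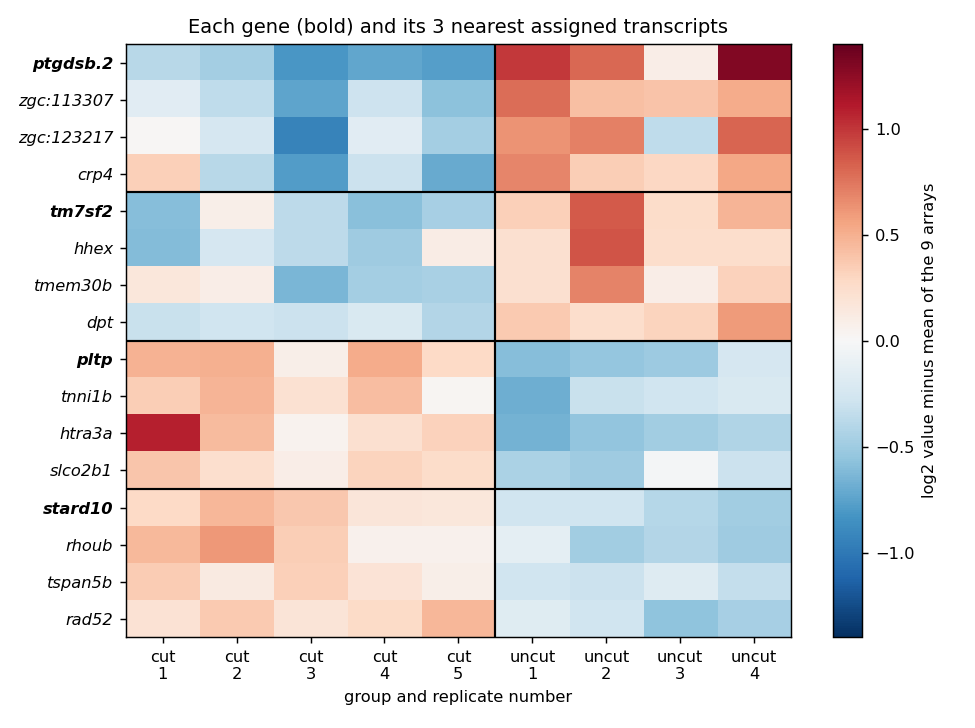
Log2 value minus the mean of the 9 arrays (color, from blue for below to red for above) on each array (columns, cut replicates 1 to 5 and then uncut replicates 1 to 4) for *ptgdsb.2*, *tm7sf2*, *pltp* and *stard10* (bold rows), each followed by its 3 nearest transcripts with a gene name. The nearest transcripts differ from their gene by 0.10 to 0.34 log2 units on average, and the array-to-array differences within a group are visible beside the difference between groups.

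The arrays measured whole posterior tissue, in which fewer cells of a type and less RNA per cell cannot be told apart. Markers of other cell types were therefore read beside the 4 genes. Of 33 listed genes of macrophages and neutrophils, 6 could be assigned, and their median was 8.62, 9.08, 8.48, 7.98 and 7.49 in cut replicates 1 to 5, against 6.74, 6.92, 7.46 and 7.33 in uncut replicates 1 to 4. All 6 had a positive change, against 57.4% of all transcripts and 64.9% of those with a gene name. So had all measured genes of skeletal muscle (6), brain and neurons (6), photoreceptors (4) and exocrine pancreas (2), and 14 of 15 lens genes. For 4 of the 6 macrophage and neutrophil genes the cut arrays all lay above the uncut arrays. This held for 2.83% of all transcripts and for 109 of the 2663 with a gene name. Still, 0 of the 6 were called, where 0.468% of all transcripts were called higher. *mfap4.1*, a macrophage gene, had the largest change, at 1.59 (adjusted p = 0.121 from limma), followed by *havcr1* at 1.47, *cxcr3.2* at 1.34 and *spi1b*, which encodes a transcription factor of myeloid cells, at 1.25. The changes of *csf1ra* and *il1b* were smaller, at 0.32 and 0.28, with overlapping groups. The part of macrophages and neutrophils in the rises of *pltp* and *stard10* was not tested. Among the cut arrays the marker median was lowest in replicate 5, where *stard10* was also lowest, at 8.74 against 8.75 in replicate 4, while *pltp* was lowest in replicate 3. Among the uncut arrays the marker median was lowest in replicate 1, where *stard10* was highest and *pltp* lowest. With so few arrays, nothing is read from these orders.

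Of 39 listed epidermal genes, 3 could be assigned (*aep1*, *krt97* and *agr1*), and their median was 12.34 to 13.16 in cut tails and 12.93 to 13.42 in uncut tails. Their changes were -0.41, -0.28 and -0.15, with 0 called, and their part in the falls of *ptgdsb.2* and *tm7sf2* was not tested. The 3 assigned ionocyte genes had a median of 7.35 to 8.45 in cut tails and 7.73 to 8.08 in uncut tails, the 6 skeletal muscle genes of 9.43 to 11.29 in cut tails and 9.09 to 11.18 in uncut tails, and the 4 fin fold genes of 10.26 to 10.87 in cut tails and 10.53 to 10.99 in uncut tails, all with overlapping groups. The 6 brain and neuron genes had a median of 7.91 to 9.15 in cut tails and 7.68 to 7.95 in uncut tails, highest in cut replicate 3. That array was also the highest for the 4 photoreceptor genes, with a median of 7.02, where the other 4 cut arrays had 5.52 to 6.08 and the uncut arrays 5.63 to 5.86. For the 2 exocrine pancreas genes its median was 10.48, where the other 4 cut arrays had 7.34 to 8.13 and the uncut arrays 7.06 to 7.83. Of the notochord genes, 1 (*cav1*) could be assigned, with 2 transcripts at changes of -0.22 and 0.07. The listed liver and yolk genes had 0 assigned transcripts.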

How the data were processed

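The authors compiled the arrays with NimbleGen software and then used ArrayStar (version not given in the sources used here) for RMA background correction and a step named quartile normalization. The deposited log2 values, 1 per transcript and array, run from 3.17 to 15.99, with array medians from 8.54 to 8.63, and were used unchanged. Every cut array median (8.593 to 8.628) lay above every uncut array median (8.537 to 8.586). How probes were summarized is not stated. Cut and uncut tails were compared in R 4.3.3 with limma 3.58.1 (lmFit and eBayes) over all 37176 transcripts, with Benjamini-Hochberg adjustment and no covariate, and the fit was tested on simulated data. The number of arrays limits the precision. Of 3055 RefSeq mRNA identifiers, 2663 matched a gene in RefSeq (GRCz12tu, used for names and neighboring genes only). Named were the 4 genes, the called and the 3 lowest-p genes of each lipid list, assigned relatives of the 4 genes and the 3 nearest patterns; other named genes were picked with their values in view. The genes, lists and rules were chosen with earlier results of these data known. Alternatives were the replicate block, quantile normalization, centering, leaving out the lowest 25% of transcripts, array weights, a variance trend, an offset of 50, stricter limits, rows of a gene averaged, and arrays left out.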

Additional observations from a re-analysis of the deposited data

Results flagged for a closer look

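Dixon's test for a value far from the rest was applied to 80 groups of 4 or 5 arrays, for the 4 genes, the named lipid genes and the marker medians. It found 3, where chance gives about 1 in 20, or 4. None of the 3 involved *ptgdsb.2*, *tm7sf2*, *pltp* or *stard10*. The value of *plpp7a* was 10.24 in cut replicate 1 and 9.91 to 9.93 in the rest of the cut arrays. In uncut replicate 3, *pla2g10* was at 9.43, with the rest of the uncut arrays at 9.06 to 9.11, and *pitpnb* was at 11.29, with the rest at 11.60 to 11.63.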

How the results depend on the processing

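The log2 changes of *ptgdsb.2*, *tm7sf2*, *pltp* and *stard10* kept their sign and moved by less than 1 pooled SD in 17 of 17 alternatives each. These 17 are not all separate checks of the size of the changes. The variance trend and the removal of the lowest transcripts left the changes exactly as they were. The replicate block gave the same changes as leaving out cut replicate 5. As the groups of these genes do not overlap, the sign was fixed in advance where arrays were left out or weighted. With an offset of 50, *stard10* was at 0.57, under the limit on fold change. Over all transcripts, 174 were higher and 85 lower. With an adjusted p of at most 0.05 there were 90 and 29, with a fold of at least 2 there were 96 and 32, with array weights 1371 and 1257, and without cut replicates 3 and 5 97 and 17. With arrays left out in turn, 47 to 326 were higher and 7 to 544 lower, and lower calls outnumbered higher ones without uncut replicate 3 (326 higher and 544 lower, or 37.5% higher), against 58.3% to 87% higher without any other single array. Higher transcripts made up 67.2% of the calls, and 56.6% after centering of each array on its median (142 higher and 109 lower). The stricter limits lower the counts by construction, and why the remaining settings moved them was not tested. Of the 113 lipid transcripts, 0 were called higher or lower, and 2 higher with array weights (*abcg2a* and *slco2b1*), with 0 to 2 when arrays were left out in turn (*abcg2a* without cut replicate 5, and both without uncut replicate 3). One transcript of *cav1* reversed to -0.037 with array weights from its change of 0.07, and ran from -0.085 to 0.20 when arrays were left out.

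Nothing states that replicate numbers pair the samples. With a replicate block, which leaves out cut replicate 5, 377 transcripts were higher and 297 lower, 1 of the lipid transcripts was called (*abcg2a*, adjusted p = 0.0799 from limma), *cav1* was at -0.025, and 4 of 4 of the genes described passed. Over the 8 arrays of the block, deviations of same-numbered arrays from their group means correlated at 0.59, 0.21, 0.24 and 0.35, all above 0.1, and for 8 of 8 arrays the best match carried the same number. With cut replicate 5 in its group's mean, the correlations were 0.58, 0.09, 0.25 and 0.32, with 1 under 0.1, and the best match carried the same number for 7 of 8. The best match thus carried the same number for most arrays either way, and only the limit of 0.1 on every correlation depended on that array. As no label states a pairing, it is not settled.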
